A study of Homo sapiens with 6 samples.

Results

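The genes described here encode proteins of the tight junction in MCF10A, a human mammary epithelial cell line that is not transformed. They were chosen by name, with no measured value in the rule, and are CLDN1, CLDN4, CLDN7, CLDN12, OCLN, TJP1, TJP3, F11R and CGN. Earlier results of these data were known when they were chosen. All 9 were present among the 23459 genes of the count table. All cells had received siRNA at 20 nM, which was non-targeting in the control group (siCtrl) and directed at both YAP and TAZ in the depleted group (siYAP/TAZ), with 3 libraries of each. Both groups were the same line, grown with horse serum, insulin, hydrocortisone, cholera toxin and EGF and transfected with the same lipid reagent. The descriptions of all libraries carry the label WT. The labels do not say whether the 3 libraries of a group came from separate cultures, so p-values measure only the spread between these libraries, which may be technical. The comparison asks which tight junction transcripts differed in level when YAP and TAZ were depleted.

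Tight junctions seal the space between epithelial cells near their apical surface. Claudins are the membrane proteins that polymerise into the sealing strands, and the claudins that a cell makes set which ions can pass between cells. Occludin and the immunoglobulin-like protein JAM-A sit in or beside the strands, and the cytoplasmic scaffolds ZO-1, ZO-3 and cingulin tie them to the actin cytoskeleton. YAP and TAZ are transcriptional co-activators that are regulated by cell contacts and act mainly through TEAD factors, and junctional scaffolds can bind them.

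The labels disagree on the group of 2 of the 6 libraries, and on replicate numbers as well. Groups and replicate numbers follow the description field. Under it the second siCtrl library has a title and genotype entry of the other group, and so has the second siYAP/TAZ library. The titles give other replicate numbers for these libraries, for the third siCtrl library and for the first siYAP/TAZ library. The targeted genes were lower in all 3 siYAP/TAZ libraries as grouped. YAP1 had 189, 204 and 210 CPM (counts scaled by TMM so that libraries can be compared) in siCtrl replicates 1, 2 and 3 and 116.5, 118 and 112 CPM in siYAP/TAZ replicates 1, 2 and 3. WWTR1, which encodes TAZ, had 109, 109 and 102 CPM in siCtrl against 70.5, 67.1 and 59.8 CPM in siYAP/TAZ. The adjusted p-values were 0.0138 and 0.0311 (edgeR quasi-likelihood F test, Benjamini-Hochberg over 12510 genes), and under the groups of the titles they were 0.904 and 0.905. Library totals were 3175149 to 4317286 counts, and the second siCtrl library stood apart from the other siCtrl libraries on the first principal component, at 7.15 against -42.6 and -34.9. On it siYAP/TAZ replicates 1, 2 and 3 lay at 9.77, 33.7 and 26.9, so the second siCtrl library lay nearest to siYAP/TAZ replicate 1. The epithelial identity of the line was visible in all libraries. Mean levels in siCtrl and siYAP/TAZ were 119 and 141.5 CPM for CDH1 (E-cadherin) and 912 and 661 CPM for KRT5, a basal keratin.

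CLDN1 and TJP3 were the members with the largest fitted differences, in opposite directions. The 250 bases before their annotated starts are shown because these are the promoters of the genes on which the comparison turns. They are from RefSeq (GRCh38.p14), written 5′ to 3′ on the strand of the gene, and capitals mark the only match to a motif that was searched. CLDN1 is at chr3:190322447-190322696 on the minus strand. TJP3 has an upstream start, with its window at chr19:3708134-3708383, and a second start, with its window at chr19:3721487-3721736, both on the plus strand.
CLDN1: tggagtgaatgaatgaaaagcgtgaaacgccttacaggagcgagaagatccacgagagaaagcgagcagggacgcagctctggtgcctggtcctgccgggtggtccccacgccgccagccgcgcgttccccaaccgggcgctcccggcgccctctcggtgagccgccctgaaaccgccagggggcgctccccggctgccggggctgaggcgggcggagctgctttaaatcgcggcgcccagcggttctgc
TJP3 upstream start: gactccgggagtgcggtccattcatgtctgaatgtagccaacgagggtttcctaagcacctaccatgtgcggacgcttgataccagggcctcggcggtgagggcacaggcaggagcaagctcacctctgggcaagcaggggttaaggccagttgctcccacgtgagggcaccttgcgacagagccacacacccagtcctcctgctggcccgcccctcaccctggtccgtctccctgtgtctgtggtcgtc
TJP3 second start: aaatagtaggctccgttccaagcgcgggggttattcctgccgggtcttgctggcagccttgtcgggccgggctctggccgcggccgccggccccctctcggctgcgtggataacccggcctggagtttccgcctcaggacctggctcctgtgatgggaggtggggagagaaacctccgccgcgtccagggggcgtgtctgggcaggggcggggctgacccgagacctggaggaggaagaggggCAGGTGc
The motifs were the TEAD core (GGAATG), the Grainyhead-like site (AACCGGTT) and the E-box bound by SNAI and ZEB factors (CACCTG), each on both strands. None of these motifs contains another, although their ends can overlap. The single capital stretch is an E-box read on the complementary strand, and it begins 7 bases before the second TJP3 start. Promoter windows were matched for 8 of the 9 members (14 windows). Of these, 5 held an E-box, in CLDN7, OCLN, TJP1 and TJP3, and 0 held the TEAD core or the Grainyhead-like site. Over all 35116 promoter windows of this length, 17.5% held the E-box, 11.9% the TEAD core and 0.117% the Grainyhead-like site. A match is a description of letters only, and its absence says nothing about binding elsewhere.

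Of the 9 genes, 7 passed the low-count filter and were tested. With group as the only term, 0 of the 7 passed an adjusted p of 0.05, where 1.96% of all genes tested did (1.22% lower and 0.743% higher). At an unadjusted p under 0.05 there were 2, CLDN1 and TJP3, against 17.7% of all genes. DESeq2 also called 0 of the members, where it called 587 over all genes. No label used here states a pairing, and the replicate numbers of the description were taken as pairs from correlations in these same data. With the replicate number as a block 2 of the 7 passed, CLDN1 lower and TJP3 higher in siYAP/TAZ, where 10.1% of all genes tested passed (5.44% lower and 4.66% higher). The siCtrl and siYAP/TAZ ranges overlapped for all 7 tested members, whereas 22.1% of all genes tested had ranges that did not overlap. The siYAP/TAZ library lay on the same side of its siCtrl partner in 3 of 3 pairs for CLDN1 and TJP1 (lower) and TJP3 (higher), against 46.1% of all genes tested (22.8% lower and 23.3% higher). The median log2 fold change of the 7 was -0.13, with 4 fitted lower and 3 higher.

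**Figure D1:**
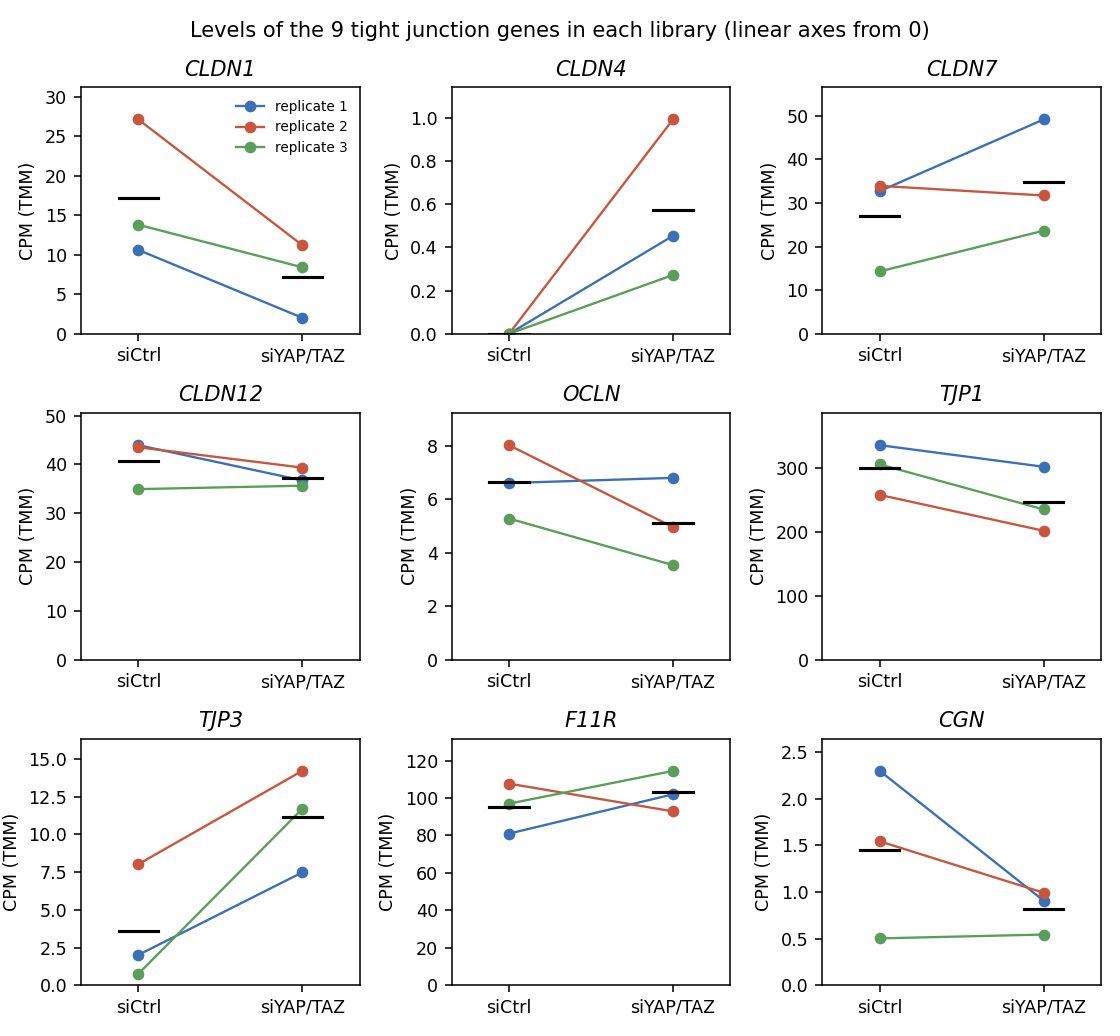
Level of each of the 9 tight junction genes in each library, in CPM on a linear axis that differs between panels, with lines joining libraries of the 2 groups that share a replicate number. Black bars are means of 3 libraries. CLDN1 is lower and TJP3 higher at the siYAP/TAZ end of all 3 lines, while both genes have siCtrl and siYAP/TAZ values that overlap.

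CLDN1 (Entrez 9076; GRCh37 chromosome 3, 190023496 to 190040235, minus strand) encodes claudin-1, a barrier-forming claudin needed for the water barrier of the skin. It had 37, 88 and 55 counts in siCtrl replicates 1, 2 and 3, and 9, 34 and 31 counts in siYAP/TAZ replicates 1, 2 and 3. These are 10.6, 27.2 and 13.8 CPM in siCtrl against 2.04, 11.2 and 8.43 CPM in siYAP/TAZ. Each siYAP/TAZ library was below its partner, with log2 ratios of -2.38, -1.27 and -0.71, but the siYAP/TAZ value of replicate 2 exceeded the siCtrl value of replicate 1. The second library was the highest of its group in both groups. The means were 17.2 ± 8.77 CPM and 7.24 ± 4.71 CPM (SD, n = 3 each), so the siYAP/TAZ mean was 42.1% of the siCtrl mean. The fitted log2 fold change was -1.29 (SE 0.54, 95% interval -2.49 to -0.084) with an adjusted p of 0.256 by edgeR. With the replicate block it was -1.31 (SE 0.30) with an adjusted p of 0.0223 by edgeR, so CLDN1 fell in that fit. The blocked call was lost without pair 1 (adjusted p 0.0887 by edgeR) and without pair 3 (0.0662), and was kept without pair 2 (0.00821). Over all genes, 3060 passed without pair 2, against 608 without pair 1, 193 without pair 3 and 1263 with all pairs. The CLDN1 call was kept by DESeq2 with the block (adjusted p 0.0254). Under the groups of the titles the estimate was 0.039 with an adjusted p of 0.995 by edgeR. No other annotated gene overlaps CLDN1. In bulk RNA, fewer cells that express a gene and less of its RNA in each cell cannot be told apart.

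CLDN7 (Entrez 1366; chromosome 17, 7163222 to 7167302, minus strand) encodes claudin-7, which binds the adhesion protein EpCAM. Its levels were 32.7, 33.9 and 14.3 CPM in siCtrl against 49.2, 31.7 and 23.7 CPM in siYAP/TAZ. It was higher in siYAP/TAZ in pairs 1 and 3, with log2 ratios of 0.59 and 0.72, and slightly lower in pair 2, at -0.097. The lowest value of both groups was in the third library. The fitted log2 fold change was 0.38 (SE 0.35, 95% interval -0.40 to 1.17), with an adjusted p of 0.616 by edgeR and 0.228 with the replicate block. With the block and without pair 2, the pair with the disputed groups, the estimate was 0.64 with an adjusted p of 0.0131 by edgeR. In that fit 3060 genes passed, against 1263 with the block and all pairs. Without pair 1 or pair 3 the blocked adjusted p was 0.680 and 0.691. With group only the estimate was 0.040 without siYAP/TAZ replicate 1 and 0.071 without siCtrl replicate 3. ELP5 overlaps 38 exonic bases of CLDN7 on the opposite strand, and a further protein-coding record shares 269 on the same strand.

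CLDN12 (Entrez 9069; chromosome 7, 90013035 to 90142716, plus strand) encodes claudin-12, an unusual claudin that lacks the tail motif by which most claudins bind ZO scaffolds. It had 43.9, 43.5 and 34.9 CPM in siCtrl against 36.7, 39.3 and 35.6 CPM in siYAP/TAZ. This was the least variable claudin, with group SDs of 12.5% and 5.12% of the mean. The log2 fold change was -0.13 (SE 0.16, 95% interval -0.48 to 0.22) with an adjusted p of 0.713 by edgeR. Its annotated span overlaps exons of GTPBP10 and CDK14 on the same strand, so its counts are uncertain.

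CLDN4 (Entrez 1364; chromosome 7, 73213872 to 73247020, plus strand) encodes claudin-4, a sealing claudin of many epithelia. It had 0 counts in each of the 3 siCtrl libraries and 2, 3 and 1 counts in siYAP/TAZ. All 6 values lie at or under the 3 counts that a count of 0 allows, which correspond to 0.68 to 0.992 CPM, so no fold is given. CLDN4 did not pass the low-count filter. With no filter its unadjusted p was 0.0295 and its adjusted p 0.281 by edgeR, and its unadjusted p was 0.110 by DESeq2. That limit covers counting error only, since these reads carry no molecular identifiers and need not be independent molecules.

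OCLN (Entrez 100506658; chromosome 5, 68788119 to 68853931, plus strand) encodes occludin, a membrane protein of the strands. It was low in all libraries, with 23, 26 and 21 counts in siCtrl against 30, 15 and 13 counts in siYAP/TAZ, or 6.61, 8.02 and 5.28 CPM against 6.80, 4.96 and 3.54 CPM. Pairs 2 and 3 were lower in siYAP/TAZ, and pair 1 was nearly level with a log2 ratio of 0.042. The log2 fold change was -0.36 (SE 0.34, 95% interval -1.12 to 0.41) with an adjusted p of 0.635 by edgeR and became 0.12 under the groups of the titles, so these counts leave room for a fall or a modest rise. The pseudogene OCLNP1 is 99.7% identical to an OCLN transcript over 679 bases and had 1 to 6 counts a library, so OCLN counts are uncertain.

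F11R (Entrez 50848; chromosome 1, 160965001 to 160991133, minus strand) encodes JAM-A, an adhesion molecule at the apical end of the junction. Its levels were 81.0, 107.7 and 97.0 CPM in siCtrl against 102, 92.9 and 114.5 CPM in siYAP/TAZ. The siYAP/TAZ library was higher in pairs 1 and 3 and lower in pair 2. The log2 fold change was 0.12 (SE 0.15, 95% interval -0.22 to 0.45) with an adjusted p of 0.736 by edgeR. A protein-coding readthrough record shares 1853 exonic bases with F11R on the same strand.

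TJP1 (Entrez 7082; chromosome 15, 29991571 to 30261118, minus strand) encodes ZO-1, the scaffold that gathers claudins and occludin. It was the member with the most counts, 609 to 1330 a library. Its levels were 335, 257 and 305 CPM in siCtrl against 301, 201 and 235 CPM in siYAP/TAZ. Each siYAP/TAZ library was below its partner, with log2 ratios of -0.15, -0.35 and -0.38, and the groups overlapped because siYAP/TAZ replicate 1 exceeded siCtrl replicate 2. The means were 299 ± 39.2 CPM and 246 ± 50.98 CPM (SD, n = 3 each). The log2 fold change was -0.28 (SE 0.17, 95% interval -0.68 to 0.11), with an adjusted p of 0.437 by edgeR and 0.120 with the replicate block.

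TJP3 (Entrez 27134; chromosome 19, 3708360 to 3750811, plus strand) encodes ZO-3, a ZO scaffold restricted mostly to epithelia. It had 7, 26 and 3 counts in siCtrl against 33, 43 and 43 counts in siYAP/TAZ. These are 2.01, 8.02 and 0.754 CPM in siCtrl against 7.48, 14.2 and 11.7 CPM in siYAP/TAZ. The second siCtrl library, whose labels disagree, was the only siCtrl value inside the siYAP/TAZ range. Each siYAP/TAZ library was above its partner, with log2 ratios of 1.90, 0.82 and 3.96. The means were 3.60 ± 3.89 CPM and 11.1 ± 3.40 CPM (SD, n = 3 each). The log2 fold change was 1.66 (SE 0.62, 95% interval 0.27 to 3.05) with an adjusted p of 0.213 by edgeR. With the replicate block it was 1.83 (SE 0.46) with an adjusted p of 0.0307 by edgeR, so TJP3 rose in that fit. The blocked call was lost without pair 3 (adjusted p 0.226 by edgeR) and was kept by DESeq2 with the block (0.0163). Under the groups of the titles the estimate was 0.74 with an adjusted p of 0.904 by edgeR. With group only and without the second siCtrl library, the estimate was 3.00 with an adjusted p of 0.00484, and without both disputed libraries it was 2.80 with 0.0100, both by edgeR. Over all genes, 1579 and 1183 passed in these 2 fits, against 245 with all libraries. APBA3 overlaps 42 exonic bases of TJP3 on the opposite strand, and whether counting used strand is not given in the sources used here. APBA3 had 24, 18 and 15 counts in siCtrl against 34, 19 and 40 counts in siYAP/TAZ. Its part in the TJP3 counts was not tested, so the TJP3 counts are uncertain.

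CGN (Entrez 57530; chromosome 1, 151482986 to 151511168, plus strand) encodes cingulin, which links ZO proteins to actin and myosin. It had 8, 5 and 2 counts in siCtrl against 4, 3 and 2 counts in siYAP/TAZ, with means of 1.45 ± 0.90 CPM and 0.814 ± 0.24 CPM (SD, n = 3 each). It did not pass the low-count filter and was not tested. Its paralog CGNL1, which encodes paracingulin and was singled out after its values were seen, had 0, 1 and 1 counts in siCtrl against 8, 10 and 10 counts in siYAP/TAZ. The ratio of the summed counts, scaled for library size, was 13.3 (95% exact interval 3.36 to 115.5, which covers counting error only). CGNL1 was also under the filter, and with no filter its adjusted p was 0.0234 by edgeR. In the fits without 1 library where it passed the filter, the adjusted p was 0.0215 when siCtrl replicate 2 was left out and 0.128 when siCtrl replicate 1 was, and DESeq2 gave no adjusted p.

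**Figure D2:**
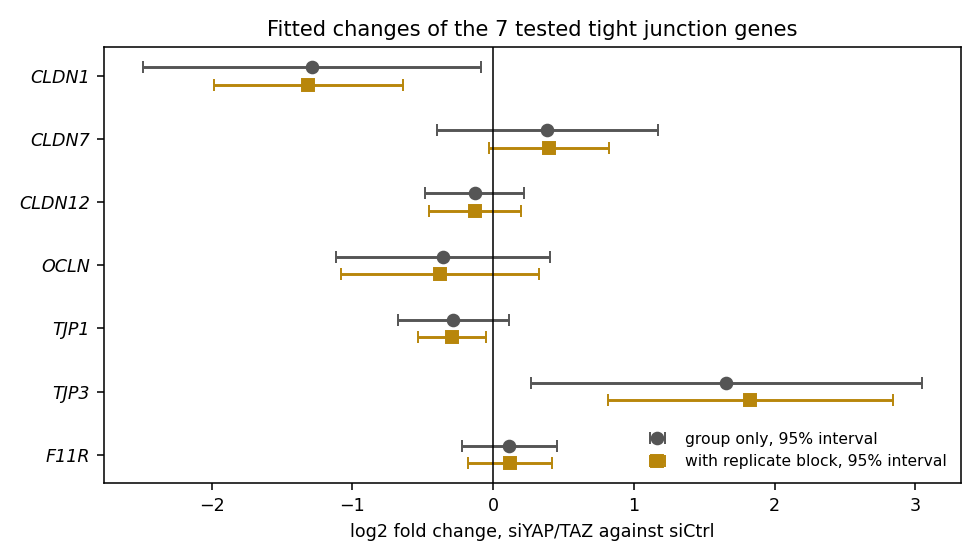
Fitted log2 fold change of siYAP/TAZ against siCtrl for the 7 tested tight junction genes, with group as the only term (circles) and with the replicate number as a block (squares), and 95% intervals as bars. CLDN1 lies at -1.29 and -1.31 and TJP3 at 1.66 and 1.83, and the other 5 genes lie between -0.38 and 0.40 in both fits.

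The make-up of the claudin transcripts was compared as shares of all claudin counts in a library, which were 508 to 826 counts over the 15 claudins with any count. Of the 24 claudins in the table, 9 had 0 counts in all 6 libraries. CLDN14, CLDN12, CLDN7 and CLDN1 together held 82.1% to 89.3% of claudin counts in siCtrl and 82.1% to 87.8% in siYAP/TAZ. CLDN14, known mainly from the inner ear and kidney, held the highest mean share, 39.8% ± 2.60 in siCtrl and 39.0% ± 5.31 in siYAP/TAZ (SD, n = 3 each). CLDN12 held 22.5% ± 1.09 and 21.5% ± 1.91, a difference smaller than the spread of either group's libraries. CLDN7 held 14.4% ± 4.02 in siCtrl and 19.8% ± 6.09 in siYAP/TAZ, and CLDN1 held 9.40% ± 4.05 and 4.28% ± 2.88, so the ranges of both overlapped between groups. By pairs, the CLDN7 share went from 16.5%, 16.8% and 9.71% in siCtrl replicates 1, 2 and 3 to 26.3%, 18.9% and 14.2% in their partners, higher in 3 of 3. The CLDN1 share went from 5.36%, 13.5% and 9.37% to 1.09%, 6.69% and 5.06%, lower in 3 of 3. These shares were not tested, and they depend on each other, since a fall of any claudin raises the shares of the rest. In pair 2 the CLDN7 share was higher in siYAP/TAZ although its level was lower, at 31.7 against 33.9 CPM. The difference in mean share was -5.12 percentage points for CLDN1, -3.09 without siCtrl replicate 2 and -0.61 under the groups of the titles, and for CLDN7 it was 5.44, 3.12 without siCtrl replicate 3, and 2.19 or 8.23 when siYAP/TAZ replicate 1 or 3 was left out. No length term was applied to the shares, since this protocol is meant to give about 1 fragment per transcript. Whether introns were counted is not given, so an effect of gene length on the shares was not tested. The annotated spans are 115.9 kb for CLDN14, 129.7 kb for CLDN12, 16.7 kb for CLDN1 and 4.08 kb for CLDN7. Exons shared with other genes also make the CLDN12, CLDN7 and CLDN14 shares uncertain.

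**Figure D3:**
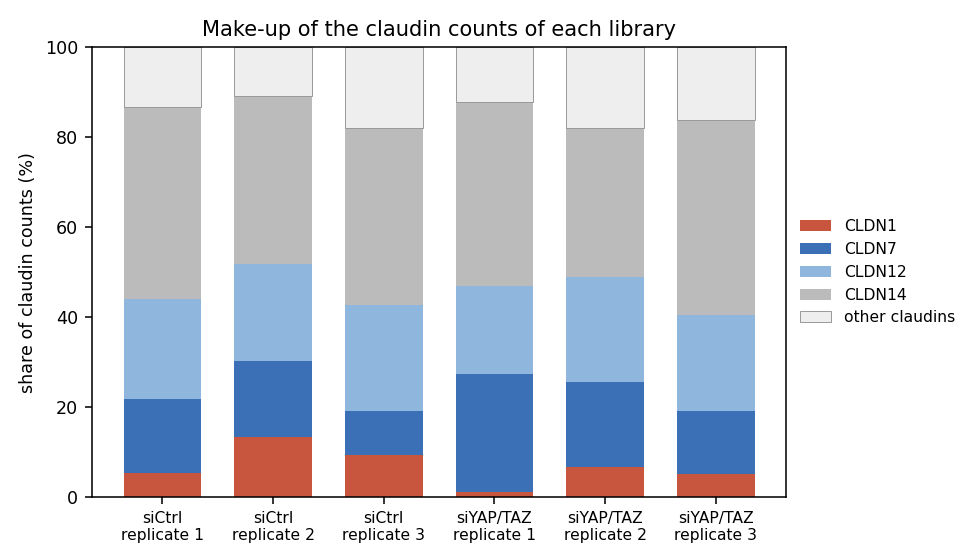
Stacked bars, one per library, give the share of all claudin counts held by each of the 4 claudins with the most counts over the 6 libraries and by the rest, in percent. CLDN14 holds the highest share in all 6 libraries, and CLDN1 ranges from 5.36% to 13.5% in siCtrl and from 1.09% to 6.69% in siYAP/TAZ.

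Beyond the 9 genes, 53 other tight junction genes were in the table, in 4 lists by role, of which 31 were tested. Of these, 0 passed an adjusted p of 0.05 with group only by edgeR or DESeq2, where 245 and 587 of all genes did. At an unadjusted p under 0.05 there were 1 lower (PRKCI) and 2 higher (CLDN10 and PARD6G), where 17.7% of all genes tested were under it. The 31 had 18 genes fitted lower and 13 higher, with a median log2 fold change of -0.092 against -0.00093 over all genes tested. With the replicate block 1 passed, where 10.1% of all genes tested did. This was PRKCI, the atypical protein kinase C of the Par polarity complex. PRKCI had 126, 162 and 127 CPM in siCtrl against 96.8, 103 and 103 CPM in siYAP/TAZ, so the groups did not overlap. The same held for 22.1% of all genes tested and, among the 31, also for CLDN10, MPDZ, ARHGEF2, SYMPK, PARD3 and PARD6G. The log2 fold change of PRKCI was -0.45 (SE 0.14), with an adjusted p of 0.138 by edgeR and 0.0435 with the replicate block. The blocked call was lost without pair 1 (0.174) and without pair 3 (0.195), and by DESeq2 with the block (0.106), and under the groups of the titles the estimate was 0.020.

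Among the other 20 claudins, 5 were tested and 0 passed in either fit. CLDN14 (72.7 and 68.0 CPM as group means), CLDN22 (10.3 and 9.02 CPM) and CLDN18 (3.89 and 4.11 CPM) had the most counts. CLDN14 shares 132 exonic bases with CLDN14-AS1 on the opposite strand. CLDN22 lies wholly within exons of WWC2 on the opposite strand, over 2177 bases, so its counts are uncertain. CLDN10, one of the genes at an unadjusted p under 0.05 and named after its values were seen, had means of 1.62 and 3.66 CPM and an adjusted p of 0.223 by edgeR. The strand and adhesion list had 5 of 9 genes tested and 0 past the threshold in either fit. CXADR, an immunoglobulin-like adhesion protein and virus receptor, had means of 56.4 and 52.7 CPM and was high in replicate 2 of both groups, at 87.0 and 87.3 CPM. LSR, a protein of tricellular contacts, had 25.2 and 26.0 CPM, and JAM3 had 18.6 and 14.9 CPM, with exons that overlap NCAPD3 on the opposite strand. The scaffold list had 11 of 12 genes tested and 0 past the threshold in either fit, with a median log2 fold change of -0.15. YBX3, a Y-box factor that binds ZO-1, had 681 and 693 CPM, CTTN (the actin-binding protein cortactin) 188 and 214 CPM and MAGI3, a PDZ scaffold, 155 and 140 CPM. The polarity list had 10 of 12 genes tested, with a median of 0.018 and PRKCI as the only gene that passed with the block.

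Genes known to act on epithelial junctions were read from the same fit: the Grainyhead-like, ELF and OVOL factors, the ESRP splicing factors, the SNAI, ZEB and TWIST repressors, membrane proteases with their inhibitors, and the EpCAM family. Of 19 such genes 17 were tested. With group only, 0 passed an adjusted p of 0.05 by edgeR or DESeq2, where 245 and 587 of all genes did. At an unadjusted p under 0.05 there were 2 higher and 0 lower, where 17.7% of all genes tested were under it. The median log2 fold change was 0.24, with 11 fitted higher and 6 lower. With the replicate block 3 passed (10.1% of all genes tested did), ELF3 and ZEB2 higher and EPCAM lower. ELF3, an epithelial ETS factor, had 5.74, 20.4 and 3.27 CPM in siCtrl against 12.9, 34.4 and 25.8 CPM in siYAP/TAZ, with an adjusted p of 0.276 by edgeR and 0.0250 with the block. As with TJP3, its second siCtrl value lay within the siYAP/TAZ range. ZEB2, a zinc-finger repressor of epithelial genes such as CDH1, had 5.46, 6.79 and 14.3 CPM in siCtrl against 24.0, 8.26 and 34.0 CPM in siYAP/TAZ, with an adjusted p of 0.220 by edgeR and 0.0240 with the block. EPCAM, the adhesion protein that binds claudin-7, had 142, 134 and 108 CPM in siCtrl against 98.4, 115 and 60.1 CPM in siYAP/TAZ, with an adjusted p of 0.292 by edgeR and 0.0364 with the block. The blocked call was lost without pair 3 for ELF3 (adjusted p 0.188 by edgeR), ZEB2 (0.2395) and EPCAM (0.372), and without pair 1 for ZEB2 (0.168) and EPCAM (0.154). By DESeq2 with the block the adjusted p was 0.00621 for ELF3, 0.0347 for ZEB2 and 0.0611 for EPCAM, so the EPCAM call was lost there. ELF3 shares 664 exonic bases with ELF3-AS1 on the opposite strand, and ZEB2 shares 2966 with a pseudogene on the same strand, so the counts of both are uncertain. EPCAM was lower in the siYAP/TAZ library of each pair while CLDN7 was not.

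**Figure D4:**
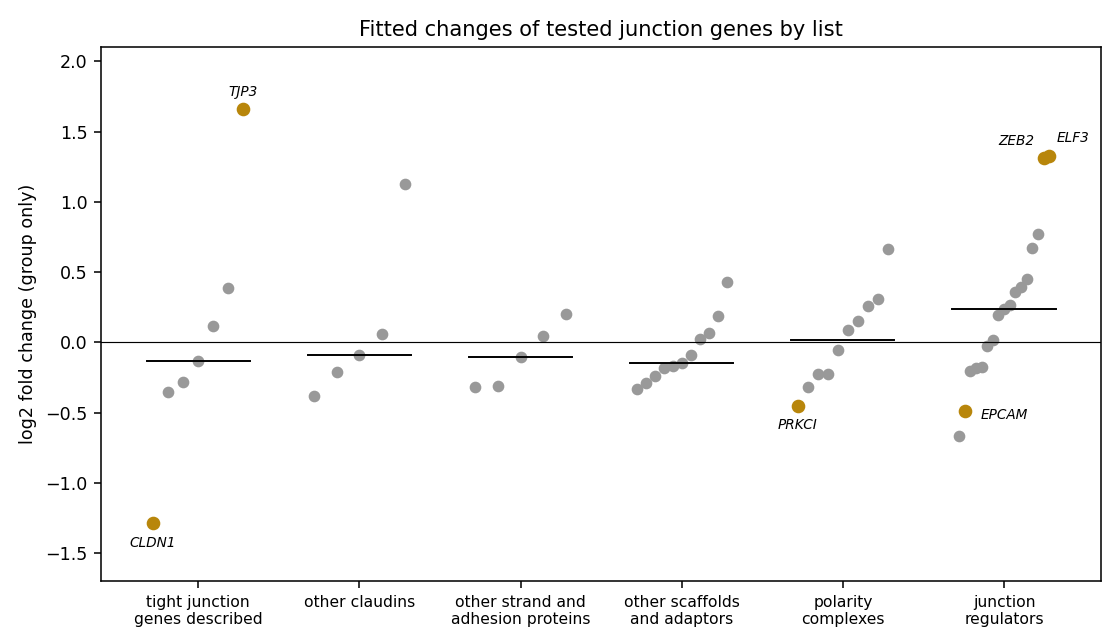
Fitted log2 fold change (group as the only term) of each tested gene in 6 groups of junction genes, with a line at each median. Genes that passed an adjusted p of 0.05 with the replicate block are coloured and named, and 0 of the points passed with group only.

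The genes whose levels ran most like those of TJP3 over the 6 libraries, among 9749 genes with a mean of at least 10 CPM, were MBD6 (Pearson r 0.999 of log2 CPM), THRA (0.996) and TMEM129 (0.995). Those most like CLDN1 were NBPF3 (0.997), CBL (0.985) and SDCBP2-AS1 (0.984). These are the highest of 9749 correlations over only 6 libraries and are given as a description. MBD6 had 15.8, 21.0 and 12.8 CPM in siCtrl against 20.9, 24.5 and 23.4 CPM in siYAP/TAZ, the same order as TJP3 over a narrower range. NBPF3 had 16.7, 20.7 and 18.1 CPM in siCtrl against 12.5, 16.9 and 16.3 CPM in siYAP/TAZ.

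Of the 9 mammary epithelial markers, 0 passed with group only by edgeR (2 lower and 1 higher at an unadjusted p under 0.05, against 17.7% of all genes tested). With the block 4 passed, KRT5, LAMB3 and EPCAM lower and TP63 higher, against 10.1% of all genes tested. The marker lists of other cell types were read beside these values. Endothelial markers summed to 2.26 to 4.01 CPM in siCtrl and 5.67 to 12.9 CPM in siYAP/TAZ over 5 genes. PECAM1, an adhesion protein of endothelium, had 6, 4 and 4 counts in siCtrl against 14, 29 and 18 in siYAP/TAZ (adjusted p 0.0785 by edgeR and 0.0245 with the block), while CLDN5, the endothelial claudin, was at 0 in all 6 libraries. KDR, an endothelial receptor, had 2, 2 and 1 counts against 4, 5 and 11. VWF and CDH5, also on the list, were nearly level, with means of 1.23 and 0.30 CPM in siCtrl against 1.26 and 0.28 CPM in siYAP/TAZ. PECAM1 held the largest part of the siYAP/TAZ sum, with means of 1.32 CPM in siCtrl and 5.9 CPM in siYAP/TAZ. Fibroblast markers (6 genes) summed to 157.6 to 173.4 CPM in siCtrl and 157.5 to 183.8 CPM in siYAP/TAZ, almost all of it PDGFRA (551 to 683 counts a library). COL1A1 had 3 to 12 counts a library, and COL1A2 and COL3A1 had 0 in all 6. Leukocyte markers (5 genes) summed to 6.79 to 12.96 CPM and 5.17 to 9.92 CPM. The part of these markers in the differences of the tight junction genes was not tested.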

How the data were processed

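RNA of 6 MCF10A samples was measured by 3′ mRNA-Seq. The authors deposited raw counts per Entrez gene with no normalisation. The submitters' processing notes name cutadapt 4.2, Bowtie2 2.3.5.1 and hg19, while the annotation, the use of strand and whether introns were counted are not given in the sources used here. Symbols matched 23308 of 23459 IDs (RefSeq, GRCh38.p14, also the source of promoter windows). Gene coordinates are from GENCODE 44 on GRCh37, the build of hg19.

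Genes with low counts were removed by the default filter of edgeR 4.0.16 (R 4.3.3). Its quasi-likelihood F test was run on TMM-scaled counts with group alone in the model, and p-values were adjusted by Benjamini-Hochberg over 12510 genes. The threshold was an adjusted p of 0.05. The fit was tested on simulated data. Alternatives changed the tool (DESeq2 1.42.0), the scaling (RLE, or library size alone), the filter (none, or a minimum mean of 50 counts), the dispersion (robust), the model (a replicate block), the grouping (by titles) or the libraries (each left out). DESeq2 with the block and the block without each pair were added after the data were seen.

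Deviations from group means correlated between same-numbered libraries with r of 0.42, 0.35 and 0.13, so the numbers, which come from the description field, were taken as pairs. Between libraries of the 2 groups with different numbers, r ran from -0.36 to 0.045. Deviations from a group mean cancel within the group, so positive values for same numbers push the others negative. The contrast is therefore no separate support for the pairs. For siCtrl replicate 3, r was 0.13 with siYAP/TAZ replicate 3 and 0.045 with siYAP/TAZ replicate 1. The titles number some libraries otherwise, and pairs by title were not fitted. Blocked values are given where they change a call. No 2 libraries of the same group agreed within sampling noise (chi-square per degree of freedom 5.37 to 17.4). All 9 members were described. From the other lists, genes past the threshold in either fit were named, and otherwise up to 3 with the highest mean CPM, and the most similar genes were sought for the 2 members with the smallest p. The members and lists were chosen with earlier results of these data known.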

Additional observations from a re-analysis of the deposited data

How the results depend on the processing

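Over all genes, 245 passed the threshold with group only, 587 with DESeq2, 556 with no low-count filter, 1263 with the replicate block, 767 with DESeq2 and the block, 1183 without both disputed libraries and 0 under the groups of the titles (464 at an unadjusted p under 0.05 by edgeR). Leaving out 1 library gave 92, 1579 and 16 genes without siCtrl replicates 1, 2 and 3 in turn, and 71 and 18 without siYAP/TAZ replicates 2 and 3 in turn, and with the block 608, 3060 and 193 without pairs 1, 2 and 3 in turn. Of the 9 tight junction genes, 2 passed with the block and with DESeq2 and the block, 1 without both disputed libraries (TJP3), and 0 to 3 with libraries or pairs left out. Of the other tight junction genes, 1 passed with no filter (CGNL1), 1 with the block, and 0 to 3 with libraries or pairs left out. Of the junction regulators, 3 passed with the block, 3 without both disputed libraries (ELF3, TWIST1 and ZEB2), 2 with DESeq2 and the block, and 0 to 5 with libraries or pairs left out. Among the genes named, the replicate block changed the calls of CLDN1, TJP3, PRKCI, ELF3, ZEB2, EPCAM, PECAM1, KRT5, LAMB3 and TP63 and no other. YAP1 lost its call without siCtrl replicate 3 (adjusted p 0.0988 by edgeR) or siYAP/TAZ replicates 2 (0.0606) and 3 (0.112) in turn. WWTR1 lost it without siCtrl replicates 1 (0.0928) and 3 (0.135) or siYAP/TAZ replicates 1 (0.0602), 2 (0.107) and 3 (0.176) in turn. The cause of these moves was not tested.

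Fitted log2 fold changes that turned sign under the groups of the titles were CLDN1 (0.039), OCLN (0.12), CLDN14 (0.18), CLDN18 (-0.070), JAM3 (0.0060), CTTN (-0.067) and PRKCI (0.020). Without both disputed libraries CLDN14 was at 0.067 and CLDN18 at -0.0038. With 1 library left out, CLDN14 ran from -0.23 to 0.035, CLDN18 from -0.11 to 0.25, CXADR from -0.66 to 0.34 and YBX3 from -0.043 to 0.16, and with the block and 1 pair left out CLDN14 reached 0.078, CLDN22 0.080, CLDN18 -0.025 and YBX3 -0.052. Over the alternatives the adjusted p of CLDN1 ran from 0.00821 to 0.995 and that of TJP3 from 8.70e-05 to 0.904. At 3175149 to 4317286 counts a library, CLDN4 and CGN did not pass the low-count filter.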
